A study of Homo sapiens with 8 samples.

Results

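The data are read counts for the subunits of the oxidative phosphorylation complexes in IGR-N91, a cell line of human neuroblastoma (NB), measured by RNA-seq in 8 libraries. Members were taken by symbol among the protein-coding rows of the count table: the NDUFA, NDUFB, NDUFC, NDUFS and NDUFV genes of complex I, SDHA to SDHD of complex II, the UQCR family and CYC1 of complex III, the COX4 to COX8 subunits of complex IV, the named ATP5 genes of complex V, and the protein genes of the mitochondrial DNA. This gave 97 genes of 60676 rows, 19837 of them protein-coding. Of these, 84 lie on nuclear chromosomes (36 in complex I, 4 in complex II, 10 in complex III, 19 in complex IV and 15 in complex V) and 13 on the mitochondrial DNA (7 in complex I, 1 in complex III, 3 in complex IV and 2 in complex V). NDUFA4 and NDUFA4L2 were placed in complex IV, to which their proteins belong.

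IGR-N91 cells were grown as aggregates in hanging drops and collected after 20 h per the library labels, whereas the series' design text gives 24 h. The 4 groups had 2 libraries each: control medium, medium conditioned by sympathetic ganglia of E8 chick embryos (E8-cSGcm), medium conditioned by dorsal root ganglia of E8 chick embryos (E8-cDRGcm) and medium conditioned by sympathetic ganglia of E15.5 mouse embryos (E15.5-mSGcm). All groups thus share the cell line, which is a single line. Whether these aggregates were of cells with a fluorescent reporter is not stated by the labels, while the methods describe fluorescent cells for such aggregation assays. Whether the 2 libraries of a group came from separate cultures is not stated, so the p-values measure the spread between these libraries, which may be technical. The comparisons below ask how far the ganglion media changed the messengers for the respiratory chain, by complex and by genome.

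Complexes I to IV pass electrons from NADH and succinate to oxygen. Of these, complexes I, III and IV pump protons across the inner mitochondrial membrane, and complex V, the ATP synthase, uses the proton gradient to make ATP. Complexes I, III, IV and V are mosaics of subunits made in the cytosol from nuclear genes and of a core made inside the organelle from mitochondrial DNA, whereas complex II is nuclear throughout. The mitochondrial genes are transcribed as long precursors from both strands, which are then processed into separate messengers, so their levels depend on transcription and on the stability of each messenger. Neuroblastoma arises from the sympathetic lineage of the neural crest, and its cells depend on mitochondria for energy and for the building blocks that growth requires.

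At 3 places on the mitochondrial DNA neighbouring genes share bases, which limits what the counts can tell apart. MT-ATP6 and MT-CO3 share only the base at position 9207. The 2 longer ones are shown as the letters of the heavy-strand messengers on chrM, whose 16569 bases and whose 13 protein gene positions were the same in the GRCh37 annotation and in the RefSeq table for GRCh38. The capitals mark the bases that lie in both genes, first for MT-ATP8 and MT-ATP6 (chrM:8507-8592, + strand, 46 shared bases) and then for MT-ND4L and MT-ND4 (chrM:10740-10786, + strand, 7 shared bases).
MT-ATP8 to MT-ATP6: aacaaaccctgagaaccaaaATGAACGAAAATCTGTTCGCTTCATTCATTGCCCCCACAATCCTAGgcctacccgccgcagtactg
MT-ND4L to MT-ND4: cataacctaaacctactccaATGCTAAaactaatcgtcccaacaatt
MT-ATP8 is 207 bases long, so a good part of the reads over it also touch MT-ATP6.

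The nuclear members lie on 22 chromosomes of the nuclear genome, 12 of them on chromosome 19. RefSeq promoter windows of 300 bases on GRCh38.p14 were found for 66 of the 84 nuclear members, in 79 windows. On either strand, GCATGCGC, the NRF1 type motif, stood in 15 of these windows (19%) against 3.05% of all 35116 windows in the table. CCGGAAG, the motif type of GABPA and other ETS factors, stood in 21 (26.6% against 10.3%), AAGATGGC, the YY1 type, in 13 (16.5% against 2.89%), and AAGGTCA, the ERR type, in 11 (13.9% against 3.92%). The E box CACGTG stood in 7 windows (8.86% against 7.26%) and TATAAA in 7 (8.86% against 11.5%). A match to these letters is a description of the sequence alone. The 250 bases before the start of 3 members are shown because their messengers changed in the way described further on: SDHB and COX8A were called in opposite directions in the chick and the mouse media, and ATP5MC2 was called lower in all 3 media. They were also chosen for holding such letters. The 250 bases of NDUFV1, UQCRC1, COX7A2L and NDUFS4, which changed as well, and 1 of the 3 windows of ATP5MC2 held none of the 6 motifs. Capitals mark the motif letters, which in SDHB (chr1:17054033-17054282, - strand) are of the ERR, NRF1 and GABPA types in that order, in COX8A (chr11:63974370-63974619, + strand) of the GABPA type and in ATP5MC2 (chr12:53676084-53676333, - strand) of the NRF1 type.
SDHB: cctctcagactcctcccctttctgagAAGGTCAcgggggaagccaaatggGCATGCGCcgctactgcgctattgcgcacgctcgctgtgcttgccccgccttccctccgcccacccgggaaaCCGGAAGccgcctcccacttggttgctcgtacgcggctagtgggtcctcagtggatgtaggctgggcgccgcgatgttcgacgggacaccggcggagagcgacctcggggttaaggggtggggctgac
COX8A: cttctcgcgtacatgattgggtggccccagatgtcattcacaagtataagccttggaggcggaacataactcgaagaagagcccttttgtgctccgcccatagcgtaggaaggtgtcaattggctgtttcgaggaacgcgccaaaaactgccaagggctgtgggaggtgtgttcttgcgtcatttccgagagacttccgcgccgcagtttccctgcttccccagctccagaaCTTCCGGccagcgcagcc
ATP5MC2: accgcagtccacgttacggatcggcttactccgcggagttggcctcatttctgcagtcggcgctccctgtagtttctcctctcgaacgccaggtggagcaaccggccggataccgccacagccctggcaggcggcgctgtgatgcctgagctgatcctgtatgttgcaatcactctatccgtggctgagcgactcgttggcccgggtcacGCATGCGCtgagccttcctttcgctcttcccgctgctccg

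The library totals ranged from 7930765 to 15060744 counts, with 7930765 and 8937397 in E15.5-mSGcm and at least 12286211 in each of the other libraries. The floor of 3 counts corresponded to 0.199 to 0.378 CPM, the count of a gene scaled to 1000000 counts of its library, and covers counting error only, since the reads carry no molecular identifiers. The labelled cell type was checked with marker genes. Of 11 NB markers, such as the sympathetic regulator HAND2, 10 were tested and CHGA was at 0 in every library. Their summed level was 7049 and 6885 CPM in control, 5328 and 5685 in E8-cSGcm, 3997 and 4029 in E8-cDRGcm and 4318 and 4135 in E15.5-mSGcm. Thus 7, 9 and 8 of the 10 were called lower in the 3 media, in that order, and 0, 0 and 1 higher. Among all tested genes 15.2%, 24.7% and 20.0% were called lower and 16.1%, 24.8% and 17.8% higher. Glial, blood and endothelial markers summed to at most 1.06, 0.757 and 1.63 CPM in any library, with SOX10 and FABP7, AIF1 and HBB, and CDH5 at 0 in all of them. The 6 fibroblast markers summed to between 158 and 226 CPM, and 2, 1 and 4 of them were called higher and 0, 2 and 1 lower. The part of the falling NB markers in the results below was not tested, and in bulk RNA fewer cells of a kind and less RNA per cell cannot be told apart.

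The 13 mitochondrial genes were all tested, and their messengers parted into a group that fell in both chick media and a group that did not. MT-CYB, MT-ND2, MT-ND3, MT-CO3, MT-ATP6 and MT-ATP8 were called lower than in control in E8-cSGcm and again in E8-cDRGcm, by log2 fold changes of -0.81 to -1.35, and no mitochondrial gene was called higher in either. In E15.5-mSGcm the direction was the other: MT-ND1, MT-ND3, MT-CYB, MT-CO3, MT-ATP6 and MT-ATP8 were called higher, by 0.34 to 0.94, and none was called lower. The nuclear members moved far less. Their medians were 0.09 in E8-cSGcm, 0.07 in E8-cDRGcm and -0.06 in E15.5-mSGcm, against -0.80, -0.53 and 0.69 for the mitochondrial members. Of the 75 nuclear members tested, 54, 41 and 27 had positive and 21, 34 and 48 negative log2 fold changes, so the signs in E8-cDRGcm were mixed. The median over all 16680 tested genes was 0.01, 0.006 and -0.02. Calls are genes whose adjusted p fell under 0.05 in edgeR's quasi-likelihood test on all 8 libraries, adjusted by Benjamini and Hochberg over all tested genes. Counts of 0 among the mitochondrial genes were also 0 at an unadjusted p under 0.05 and in DESeq2. The 3 comparisons share the control libraries and are not independent of each other.

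Called lower in E8-cSGcm were 6 of the 13 mitochondrial genes (46.2%), where 15.2% of all tested genes were called lower and 16.1% higher. In E8-cDRGcm 6 of 13 were called lower, with 24.7% of all tested genes lower and 24.8% higher. In E15.5-mSGcm 6 of 13 were called higher, with 17.8% of all tested genes higher and 20.0% lower. When a fold change of at least 1.5 was also asked for, 6, 6 and 5 mitochondrial genes remained in these counts. The same rule called 4.73% of all tested genes higher and 3.86% lower in E8-cSGcm, 9.81% and 10.9% in E8-cDRGcm, and 6.65% and 7.27% in E15.5-mSGcm. By complex, the genes called lower in each chick medium were 2 of the 7 in complex I, the single gene of complex III, 1 of the 3 in complex IV and both of complex V.

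**Figure D1:**
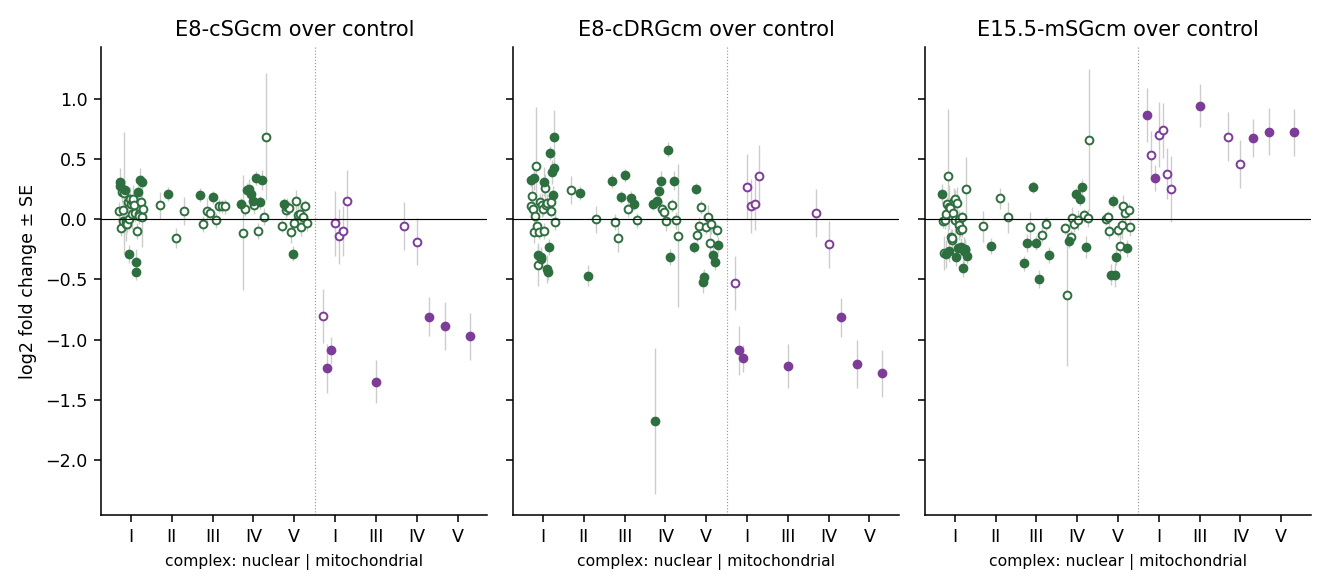
Log2 fold change over control, with its standard error, of the 75 nuclear (green) and 13 mitochondrial (purple) members tested, by complex, in each of the 3 media; filled points passed an adjusted p of 0.05 in edgeR. The mitochondrial members reach -1.35 in E8-cSGcm and 0.94 in E15.5-mSGcm, and the nuclear members run from -1.68 to 0.69 over the 3 media.

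MT-CYB, the catalytic subunit of complex III and its single mitochondrial gene, gave the largest fall in E8-cSGcm. Its normalised level was 886 and 1149 CPM in the control libraries, 428 and 372 in E8-cSGcm, 396 and 479 in E8-cDRGcm, and 2040 and 1872 in E15.5-mSGcm. Both chick groups lay below control and the mouse group above it, with no overlap. The log2 fold changes were -1.35 ± 0.18 (SE, adjusted p = 0.00671), -1.22 ± 0.18 (adjusted p = 0.00532) and 0.94 ± 0.18 (adjusted p = 0.0163), in edgeR with 2 libraries per group. Set directly against the chick media, E15.5-mSGcm was higher by 2.29 (adjusted p = 0.000575, edgeR) over E8-cSGcm and by 2.16 (adjusted p = 0.000627) over E8-cDRGcm.

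In complex V, MT-ATP6 and MT-ATP8 encode parts of the membrane-embedded proton channel and are carried on a single messenger. MT-ATP6 had 817 and 1101 CPM in control, 567 and 471 in E8-cSGcm, 380 and 452 in E8-cDRGcm and 1649 and 1524 in E15.5-mSGcm. MT-ATP8 had 535 and 679 CPM in control, 347 and 274 in E8-cSGcm, 225 and 274 in E8-cDRGcm and 1045 and 957 in E15.5-mSGcm. For both genes every chick library lay below every control library and every mouse library above. The log2 fold changes were -0.89, -1.20 and 0.73 for MT-ATP6 (adjusted p = 0.0328, 0.00799 and 0.0482, edgeR) and -0.97, -1.28 and 0.72 for MT-ATP8 (adjusted p = 0.0241, 0.00618 and 0.0464, edgeR), in the order E8-cSGcm, E8-cDRGcm and E15.5-mSGcm. Reads inside the 46 shared bases printed above lie in both genes, so their values are not fully separate measurements.

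In complex IV the 3 mitochondrial genes make up the catalytic core, and MT-CO3 parted from the other 2. MT-CO3 had 1272 and 1562 CPM in control, 861 and 758 in E8-cSGcm, 729 and 883 in E8-cDRGcm and 2386 and 2140 in E15.5-mSGcm. These gave log2 fold changes of -0.81, -0.81 and 0.67 (adjusted p = 0.0225, 0.0137 and 0.0321, edgeR). MT-CO1, which holds the site where oxygen is reduced, had 4293 and 5406 CPM in control and overlapped with it in the chick media, at 5104 and 4223 in E8-cSGcm and 4348 and 5700 in E8-cDRGcm. MT-CO2, which takes electrons from cytochrome c, had 2270 and 2849 CPM in control, 2440 and 2056 in E8-cSGcm and 1927 and 2504 in E8-cDRGcm, also overlapping. Neither gene was called against control in any medium, with log2 fold changes in E15.5-mSGcm of 0.69 (adjusted p = 0.0626, edgeR) for MT-CO1 and 0.46 (adjusted p = 0.152) for MT-CO2, although both mouse libraries of each lay above both control libraries.

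The 7 mitochondrial genes of complex I encode its proton-pumping membrane arm and split in the same manner. MT-ND2 had 588 and 798 CPM in control, 314 and 274 in E8-cSGcm and 294 and 358 in E8-cDRGcm, with log2 fold changes of -1.24 and -1.09 (adjusted p = 0.0131 and 0.0119, edgeR). MT-ND3 had 185 and 202 CPM in control, 96.3 and 85.8 in E8-cSGcm, 75.5 and 98.3 in E8-cDRGcm and 245 in both libraries of E15.5-mSGcm. Its control libraries agreed most closely, and the log2 fold changes were -1.09, -1.16 and 0.34 (adjusted p = 0.000182, 5.69e-05 and 0.041, edgeR). MT-ND1 lay lower in all 4 chick libraries, at 683 and 546 CPM and at 658 and 828, than in control at 907 and 1234, but was not called (-0.80, adjusted p = 0.0629, and -0.53, adjusted p = 0.127, edgeR). MT-ND1 was called higher in E15.5-mSGcm, at 2047 and 1858 CPM (0.87, adjusted p = 0.0425, edgeR).

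MT-ND4, MT-ND4L, MT-ND5 and MT-ND6 were not called in any medium. Their log2 fold changes ran from -0.14 to 0.15 in E8-cSGcm, from 0.11 to 0.36 in E8-cDRGcm and from 0.25 to 0.74 in E15.5-mSGcm. MT-ND4 had 3474 and 4860 CPM in control, and the chick libraries, at 3446 to 5723, overlapped with them. MT-ND6, the sole member on the light strand, had 83.0 and 118 CPM in control and 98 to 148 in the 6 other libraries. The strand setting of the counting is not given in the sources used here, so its reads and those of the opposite strand may not be separated.

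Per length of the gene, the order in control was MT-CO2 at 3782 ± 600 CPM per kb (SD, n = 2), MT-CO1 at 3178 ± 511, MT-ND4 at 3056 ± 714, MT-ATP8 at 2964 ± 491, MT-CO3 at 1827 ± 263, MT-ND5 at 1516 ± 302, MT-ATP6 at 1423 ± 296, MT-ND1 at 1131 ± 243, MT-ND4L at 1040 ± 188, MT-CYB at 901 ± 164, MT-ND2 at 672 ± 143, MT-ND3 at 565 ± 33.1 and MT-ND6 at 194 ± 47.7. The steps from MT-CO2 to MT-CO1, from MT-ATP8 to MT-CO3, from MT-CO3 to MT-ND5, from MT-CYB to MT-ND2 and from MT-ND3 to MT-ND6 were larger than either neighbour's SD, and no other step between neighbours was. These SDs include the difference in mitochondrial amount between the control libraries (1.81% and 2.36% of all counts), which genes of a library share. They therefore do not measure how firm the order is within a library. MT-ATP8 and MT-ATP6 differed in level per length although they share a messenger, and so did MT-ND4L and MT-ND4.

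The make-up of the mitochondrial messenger pool was far more even between replicates than its amount. The share of each gene in the sum of the 13 mitochondrial counts was computed per library, a measure chosen after the values had been seen, in which a fall of some genes forces a rise of others. MT-CYB took 4.95% and 4.91% of this sum in control, 2.28% and 2.46% in E8-cSGcm, 2.42% and 2.27% in E8-cDRGcm and 6.05% and 6.08% in E15.5-mSGcm. Its share in all 4 chick libraries was thus below control, and in both mouse libraries above it. MT-ATP6 took 4.56% and 4.70% in control, 3.02% and 3.11% in E8-cSGcm, 2.32% and 2.14% in E8-cDRGcm and 4.89% and 4.95% in E15.5-mSGcm, so that E8-cDRGcm lay below E8-cSGcm. MT-ND1, which was not called lower by its level, took 5.06% and 5.27% in control against 3.64% and 3.61% in E8-cSGcm and 4.02% and 3.92% in E8-cDRGcm.

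In all 4 chick libraries the shares of MT-ND1, MT-ND2, MT-ND3, MT-CYB, MT-CO3, MT-ATP6 and MT-ATP8 were below both control libraries, and those of MT-CO1, MT-ND4, MT-ND4L, MT-ND5 and MT-ND6 were above both. MT-CO2 overlapped with control. The largest shares rose, MT-CO1 from 24.0% and 23.1% in control to between 26.5% and 27.9%, and MT-ND4 from 19.4% and 20.8% to between 22.8% and 27.1%. Together the 7 genes that fell held 29.0% and 28.7% of the sum in control, 17.6% and 18.4% in E8-cSGcm, 16.8% and 16% in E8-cDRGcm and 31.1% and 31.0% in E15.5-mSGcm. In an exact permutation test over the 105 ways to pair the 8 libraries into 4 groups, with n = 2 per group, each of the 13 shares differed among the media (adjusted p = 0.0218 to 0.0469 over 16 values tested), and the smallest p this design allows is 0.00952.

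In E15.5-mSGcm the shares moved less than the levels did. MT-ND1 (6.07% and 6.03%), MT-CYB, MT-ATP6, MT-ATP8, MT-CO1 and MT-ND4L lay above both control libraries and MT-CO3 and MT-ND4 overlapped with them, whereas MT-ND2, at 3.17% and 3.05% against 3.28% and 3.41%, MT-ND5, at 10.8% and 11.1% against 13% and 13.3% in control, MT-CO2, at 10.9% in both libraries against 12.7% and 12.2%, and MT-ND6, at 0.360% and 0.387% against 0.464% and 0.505%, lay below both. MT-ND3 also took a smaller share than in control (0.727% and 0.796% against 1.04% and 0.862%), although its level was called higher.

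The amount of mitochondrial messenger varied more between replicates. The 13 genes held 1.81% and 2.36% of all counts in control, 1.91% and 1.55% in E8-cSGcm, 1.62% and 2.06% in E8-cDRGcm and 3.32% and 3.02% in E15.5-mSGcm. Control and both chick groups overlapped, while the E15.5-mSGcm libraries lay above all others. The 84 nuclear members held 0.744% and 0.712% in control, 0.747% and 0.802% in E8-cSGcm, 0.732% and 0.750% in E8-cDRGcm and 0.696% and 0.675% in E15.5-mSGcm. The ratio of mitochondrial to nuclear counts was therefore 2.44 and 3.32 in control, 2.55 and 1.93 in E8-cSGcm, 2.22 and 2.75 in E8-cDRGcm, and 4.77 and 4.47 in E15.5-mSGcm. Among the 4 media these 3 quantities did not pass the same permutation test, with adjusted p of 0.0762 for the mitochondrial share and the ratio and 0.0653 for the nuclear share.

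The ribosomal RNAs of the mitochondrion are made from the same precursors. MT-RNR2, the large ribosomal RNA, had log2 fold changes of 0.10 (adjusted p = 0.54, edgeR), 0.38 (adjusted p = 0.0162) and 0.53 (adjusted p = 0.00492) in E8-cSGcm, E8-cDRGcm and E15.5-mSGcm, and was thus called higher in E8-cDRGcm, where 6 messengers were called lower. MT-RNR1, the small ribosomal RNA, had 0.03, 0.21 and 0.28 and was called in no medium. Of 22 mitochondrial tRNAs 9 were tested, with 1, 1 and 4 called higher (11.1%, 11.1% and 44.4%) and 2, 4 and 2 lower (22.2%, 44.4% and 22.2%). The shares of all tested genes were 16.1%, 24.8% and 17.8% higher and 15.2%, 24.7% and 20.0% lower. MT-TE, the glutamate tRNA, fell in all 3 media, by log2 fold changes of -0.38, -1.41 and -1.44. Of 10 copies of mitochondrial DNA in the nuclear genome tested, 3 (30%) were called lower in each chick medium and 6 (60%) higher in E15.5-mSGcm. In E8-cDRGcm this is near the share of all tested genes, and 4 of the 10 log2 fold changes there were positive and 6 negative. MTATP6P1, a copy that holds MT-ATP6, had 182 and 232 CPM in control, 118 and 104 in E8-cSGcm, 79.7 and 102 in E8-cDRGcm and 350 and 317 in E15.5-mSGcm. MTND2P28, a copy of MT-ND2, had 51.3 and 65.8 CPM in control and 23.2 to 30.8 in the chick media. Reads from such near-identical copies cannot be assigned with certainty, and the part of this in the mitochondrial values was not tested.

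The calls for single mitochondrial genes depended on individual libraries. The 6 genes called lower in E8-cSGcm became 2 without its replicate 1 and 1 without its replicate 2, and the 6 in E8-cDRGcm became 3 without its replicate 1. The 6 called higher in E15.5-mSGcm became 3 without control replicate 1, 1 without either E8-cSGcm library, 3 without either E8-cDRGcm library and 0 without either E15.5-mSGcm library. Over these leave-outs 16 of 312 mitochondrial values turned their sign, none of which was called with or without the library. Leaving out control replicate 2 brought the mitochondrial medians to -0.56 in E8-cSGcm and -0.29 in E8-cDRGcm.

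The direct comparisons leave the control libraries out of the contrast. They come from the same fit of all 8 libraries, so control still entered the filter, the normalization and the estimated spread. Over E8-cSGcm, E15.5-mSGcm had 9 of 13 mitochondrial genes called higher and 0 lower, where 23.9% of all tested genes were called higher and 25.9% lower. Over E8-cDRGcm it had 8 called higher and 0 lower, against 25.8% and 26.8%. Between the chick media 0 of 13 were called in edgeR, 0 had an unadjusted p under 0.05 and 0 were called in DESeq2, where 30.2% of all tested genes differed in either direction. Of the 75 nuclear members tested, 6 were called higher and 32 lower in E15.5-mSGcm than in E8-cSGcm, 12 higher and 30 lower than in E8-cDRGcm, and 20 differed between the chick media (edgeR). Of these 20, 6 were higher in E8-cDRGcm and 14 lower. The 6 became 3 without E8-cSGcm replicate 1 and 2 without E8-cDRGcm replicate 2, and the 14 became 1 without E8-cSGcm replicate 2, 6 without E8-cDRGcm replicate 1 and 8 without E8-cDRGcm replicate 2, which also left 1 mitochondrial gene called lower. With DESeq2 they were 3 and 3. The 12 higher than in E8-cDRGcm became 7 without E15.5-mSGcm replicate 1. Among the 4 media as a whole, 7 of 13 mitochondrial members (53.8%) and 50 of 75 nuclear members (66.7%) differed, near or below the 68.5% of all tested genes.

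Of the 84 nuclear members 75 had enough counts to be tested. The other 9 had at most 6 counts in every library. Among them COX7A1, COX8C and NDUFA6 had none, COX6A2, COX6B2 and COX7B2 had at most 3 and NDUFA3 and NDUFS1 at most 1. COX6A2 and COX7A1 are isoforms of heart and skeletal muscle, and COX6B2 and COX8C are known from testis. NDUFA3, NDUFA6, NDUFS1 and UQCRC2, however, are parts of complexes that every respiring cell builds, so their near-zero counts cannot be read as their expression. In the GENCODE annotation NDUFA6 and NDUFS1 overlap with another gene on their own strand and NDUFA3 with a gene on the other strand, while none was found for UQCRC2, and the part of such overlaps was not tested. NDUFA7 (0.457 to 1.41 CPM) and NDUFV2 (2.80 to 6.21 CPM) also stood far below their neighbours in complex I. Moreover, 48 of the 84 have pseudogenes named after them, with which short reads can be confused.

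Most nuclear changes were small. In E8-cSGcm 18 of 75 were called higher (24%) and 4 lower (5.33%), where 16.1% of all tested genes were higher and 15.2% lower. In E8-cDRGcm 21 were higher (28%) and 15 lower (20%), near the 24.8% and 24.7% of all tested genes. In E15.5-mSGcm 6 were higher (8%) and 21 lower (28%), against 17.8% and 20.0%. A fold change of at least 1.5 was reached by NDUFV2 and COX4I2 in E8-cDRGcm and by no called nuclear member in the other media. NDUFV2, a complex I subunit with an iron-sulfur cluster, had 3.52 and 3.75 CPM in control and 6.21 and 5.49 in E8-cDRGcm (log2 fold change 0.68 ± 0.22, adjusted p = 0.00973, edgeR). COX4I2, the COX4 isoform of lung, which is induced by low oxygen, had 12 counts in each control library and 3 and 4 in E8-cDRGcm (-1.68 ± 0.60, adjusted p = 0.0201, edgeR), and this call was lost when any of these 4 libraries was left out and with DESeq2. NDUFV2 was not called with DESeq2, with libraries thinned to the smallest total, or without control replicate 1 or E8-cDRGcm replicate 1. The nuclear counts rested on single libraries as well. The 18 called higher in E8-cSGcm became 6 without control replicate 2 and 6 without E8-cSGcm replicate 2, and 6 with DESeq2. The 6 called higher in E15.5-mSGcm became 1 without control replicate 2 and 3 without E15.5-mSGcm replicate 1. The nuclear median in E8-cDRGcm was 0.11 without control replicate 1 and 0.014 without control replicate 2, and in E15.5-mSGcm it was -0.10 without control replicate 2 and -0.12 without E15.5-mSGcm replicate 1.

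By complex, 8 of 14 nuclear members of complex IV tested were called higher in E8-cSGcm and 0 lower (16.1% of all tested genes were higher and 15.2% lower), and in E8-cDRGcm 6 were called higher and 2 lower (24.8% and 24.7%). In complex III 5 of 9 were called higher and 0 lower in E8-cDRGcm, whereas in E15.5-mSGcm 1 was called higher and 5 lower (17.8% and 20.0% of all tested genes). In complex V 1 of 15 was called higher, 6 lower and 8 in neither direction in E8-cDRGcm, and complex I had 9 of 33 called lower and 1 higher in E15.5-mSGcm. In complex II, SDHB was called higher in both chick media and lower in the mouse medium, and SDHC was called lower in E8-cDRGcm. Medians of single complexes lay between -0.20 (complex III in E15.5-mSGcm) and 0.15 (complex IV in E8-cSGcm).

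There were 10 nuclear members called in opposite directions against control in a chick medium and in E15.5-mSGcm with the direct comparison also called: 6 for E8-cSGcm and 9 for E8-cDRGcm. The same rule held for 11.5% of all tested genes (8.18% for E8-cSGcm and 9.25% for E8-cDRGcm), which is close to 10 of 75. NDUFV1 carries the flavin that takes electrons from NADH. It had 88.3 and 84.1 CPM in control, 104 and 108 in E8-cSGcm, 113 and 119 in E8-cDRGcm and 71.6 and 73.2 in E15.5-mSGcm. The groups did not overlap, and the log2 fold changes over control were 0.30 ± 0.06, 0.43 ± 0.06 and -0.25 ± 0.06 (adjusted p = 9.18e-05, 1.12e-07 and 0.00225, edgeR). CYC1, cytochrome c1 of complex III, had 118 and 113 CPM in control, 126 and 140 in E8-cSGcm, 139 and 150 in E8-cDRGcm and 87.9 and 91.5 in E15.5-mSGcm. Its log2 fold changes were 0.20, 0.32 and -0.37 (adjusted p = 0.00706, 1.91e-05 and 1.77e-05, edgeR). UQCRC1, a core protein of complex III, followed with 0.18, 0.36 and -0.20 (adjusted p = 0.00793, 4.17e-07 and 0.00624, edgeR), and both chick groups lay above control and the mouse group below it.

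SDHB, the iron-sulfur subunit of complex II whose promoter is printed above, had 106 and 98.6 CPM in control, 113 and 123 in E8-cSGcm, 120 and 118 in E8-cDRGcm and 90.8 and 84.7 in E15.5-mSGcm. The log2 fold changes were 0.21, 0.22 and -0.22 (adjusted p = 0.00657, 0.00254 and 0.0057, edgeR). COX8A, a small structural subunit of complex IV, rose from 34.6 and 37.9 CPM in control to 43.0 and 48.0 in E8-cSGcm and 43.4 and 47.2 in E8-cDRGcm and had 31.8 and 30.2 in E15.5-mSGcm. Its call in E15.5-mSGcm (-0.23, adjusted p = 0.0482, edgeR) was lost in 11 of 18 alternatives. NDUFA13, NDUFS8 and COX5A went up in E8-cDRGcm (0.34, 0.20 and 0.15) and NDUFA8 in E8-cSGcm (0.24), and all 4 went down in E15.5-mSGcm (-0.29, -0.25, -0.18 and -0.26). COX7B was the single member in which the signs were the reverse, with 99.2 and 91.5 CPM in control, 76.7 and 76.4 in E8-cDRGcm and 117 and 113 in E15.5-mSGcm (-0.32 and 0.27, adjusted p = 0.000121 and 0.00132, edgeR).

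**Figure D2:**
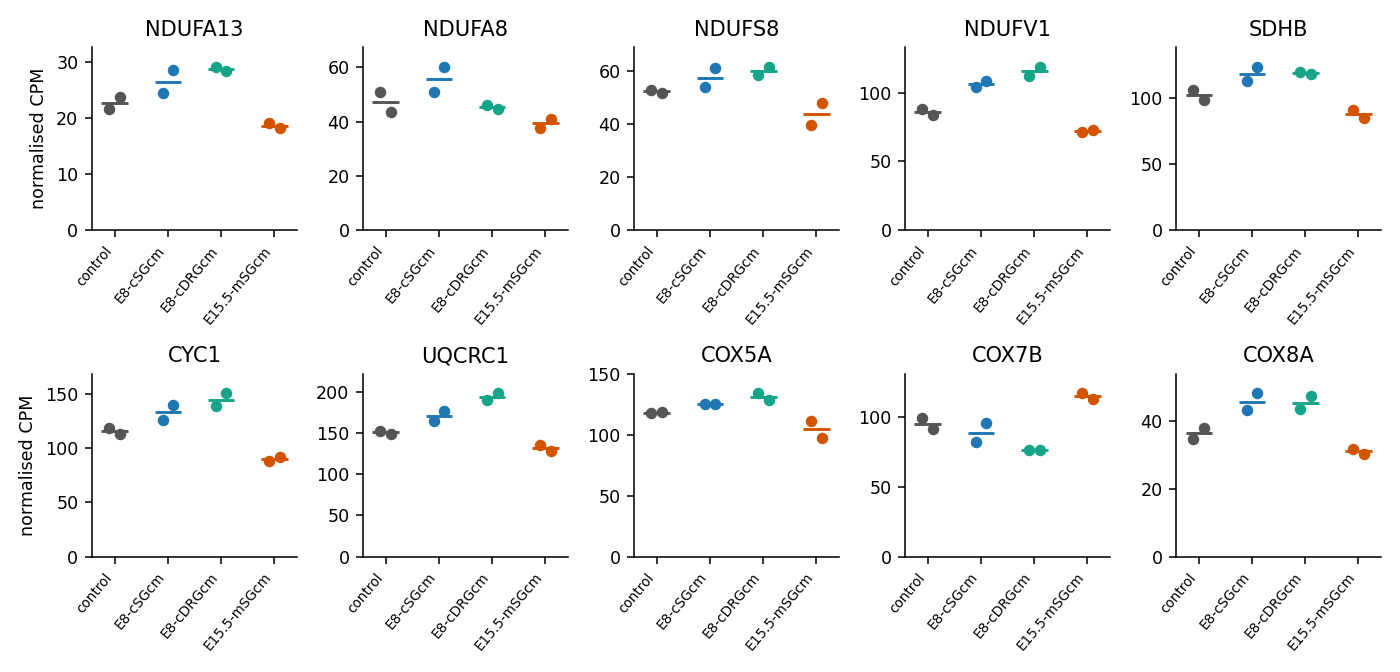
Normalised CPM in each library (points) and group mean (lines) of the 10 nuclear members called in opposite directions in a chick medium and in E15.5-mSGcm; axes start at 0. In all but COX7B the E15.5-mSGcm libraries lie below control, as in NDUFV1 at 71.6 and 73.2 CPM against 88.3 and 84.1.

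The nuclear changes in E15.5-mSGcm moved with base composition. Across the 75 nuclear members, which share the libraries and are not independent, the GC content of the exons (36.1% to 65%, median 47.8%, against 47% over all tested genes) correlated with the log2 fold change at r = -0.43 in E15.5-mSGcm, 0.35 in E8-cSGcm and 0.02 in E8-cDRGcm. Over 16574 tested genes r was -0.20, 0.07 and -0.02. After each library was corrected for GC content and exon length, 3 nuclear members were called higher and 19 lower in E15.5-mSGcm, 14 and 4 in E8-cSGcm, and 22 and 16 in E8-cDRGcm. The shares of all tested genes called in the corrected fit are not given here, so these counts cannot be set against a background. The falls of NDUFV1, CYC1, UQCRC1, COX8A, NDUFA13, NDUFS8 and ATP5F1D in E15.5-mSGcm were no longer called (-0.10, -0.12, -0.02, -0.03, -0.04, -0.06 and -0.19), whereas those of SDHB (-0.29, adjusted p = 0.000415, edgeR) and UQCRFS1 (-0.56, adjusted p = 3.45e-08) were. The rises of CYC1 (0.09) and UQCRC1 (0.13) in E8-cSGcm and of COX5A (0.12) in E8-cDRGcm were also no longer called. The other calls in the chick media of the members with opposite calls remained. The direct differences between E15.5-mSGcm and E8-cDRGcm were still called for NDUFV1, CYC1, UQCRC1, SDHB, COX8A, COX7B, NDUFA13, NDUFS8 and COX5A, at -0.56, -0.42, -0.44, -0.52, -0.39, 0.48, -0.40, -0.29 and -0.37. The fall of NDUFB7 in E15.5-mSGcm (-0.32, adjusted p = 0.000562, edgeR) turned to 0.013 with the correction, and it was the only called nuclear value of the 3 media whose sign turned. With the correction the 3 rises called in E15.5-mSGcm were those of COX7B, COX6C and NDUFA1. Those of UQCRB (0.10, adjusted p = 0.112, edgeR) and COX7A2L (0.11, adjusted p = 0.218) were no longer called. Why the changes moved with base composition was not tested.

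**Figure D3:**
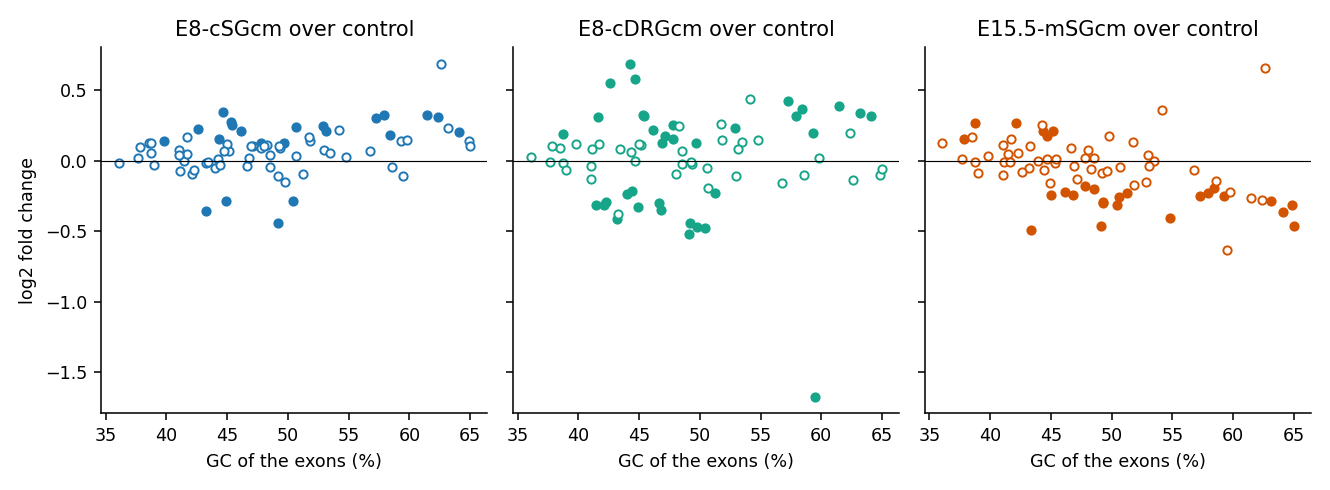
Log2 fold change over control against the GC content of the exons (percent) for the 75 nuclear members tested; filled points passed an adjusted p of 0.05. The points slope down in E15.5-mSGcm (r = -0.43) and up in E8-cSGcm (r = 0.35).

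Other members changed in particular media. COX7A2L, which helps join complexes III and IV into supercomplexes, was called higher in all 3 media. It had 74.5 and 72.7 CPM in control, 92.5 and 94.0 in E8-cSGcm, 106 and 114 in E8-cDRGcm and 86.1 and 79.9 in E15.5-mSGcm, every medium library above both controls. The log2 fold changes were 0.34, 0.58 and 0.17 (adjusted p = 3.53e-05, 3.16e-10 and 0.0376, edgeR), the last of which was lost in 7 of 18 alternatives. NDUFS4, a late-assembled subunit of complex I, had 70.0 and 71.7 CPM in control, 82.1 and 83.6 in E8-cSGcm and 103 and 104 in E8-cDRGcm (0.23 and 0.55, adjusted p = 0.00382 and 6.14e-10, edgeR), and stood at 67.3 and 66.9 in E15.5-mSGcm. NDUFB2 (-0.29 and -0.33) and NDUFC2 (-0.36 and -0.41) were called lower in both chick media.

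The c ring of complex V, which turns as protons pass, is encoded by 3 nuclear genes for the same mature protein, and these differed. ATP5MC2 had 94.0 and 96.3 CPM in control, 74.3 and 81.6 in E8-cSGcm, 70.5 and 66.3 in E8-cDRGcm and 77.4 and 75.6 in E15.5-mSGcm, every medium library below both controls. Its log2 fold changes were -0.29, -0.48 and -0.32 (adjusted p = 0.000441, 5.59e-08 and 0.000216, edgeR). ATP5MC1 was called lower in E8-cDRGcm and E15.5-mSGcm (-0.52 and -0.46, adjusted p = 1.17e-05 and 0.000308, edgeR), and ATP5MC3, with between 103 and 111 CPM in all libraries, in none. After the GC and length correction, however, ATP5MC3 was called lower in E15.5-mSGcm (-0.18, adjusted p = 0.0122, edgeR). In the catalytic head, the alpha subunit ATP5F1A had 524 and 509 CPM in control and 434 and 444 in E8-cDRGcm (-0.23, adjusted p = 0.000106, edgeR), while the beta subunit ATP5F1B had 621 and 599 in control and 716 and 739 in E8-cDRGcm (0.25, adjusted p = 3.35e-05). The head's delta subunit ATP5F1D fell in E15.5-mSGcm, with 40.3 and 40.2 CPM in control and 29.2 in both mouse libraries (-0.46, adjusted p = 5.85e-05, edgeR).

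UQCRFS1, the Rieske iron-sulfur protein of complex III, had the lowest called nuclear value in E15.5-mSGcm. It had 71.6 and 66.7 CPM in control, 67.1 and 70.0 in E8-cSGcm, 70.8 and 75.6 in E8-cDRGcm and 48.0 and 50.0 in E15.5-mSGcm, so that the mouse group stood apart while the chick groups overlapped with control (-0.49 ± 0.07, adjusted p = 1.23e-06, edgeR). NDUFS6, a zinc-binding subunit of complex I, fell there too (-0.41, adjusted p = 3.71e-05, edgeR). UQCRB, a ubiquinone-binding subunit of complex III, rose in E8-cDRGcm and E15.5-mSGcm (0.19 and 0.26), COX6C in E8-cSGcm and E15.5-mSGcm (0.15 and 0.21) and NDUFA1 in E15.5-mSGcm (0.21). The rise of UQCRB in E15.5-mSGcm was not called after the GC and length correction (0.10, adjusted p = 0.112, edgeR). SDHC, a membrane anchor of complex II, had 40.9 and 36 CPM in control, 27.0 and 28.3 in E8-cDRGcm and 44.1 and 42.6 in E15.5-mSGcm, with a call in E8-cDRGcm (-0.47, adjusted p = 1.98e-05, edgeR).

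Of the remaining core subunits, NDUFS7 (0.32 and 0.39), COX5B (0.24 and 0.23) and COX4I1 (0.12 and 0.13, with the calls lost in 12 and 3 of 18 alternatives) were called higher in both chick media, and SDHA, the flavoprotein of complex II, in none (0.11, 0.24 and -0.06). The isoform NDUFA4 stayed between 59.5 and 66.2 CPM. NDUFA4L2, its isoform induced by low oxygen, had at most 1.03 CPM, and its log2 fold changes of 0.69, -0.14 and 0.66 were not called. UQCRH and UQCRHL, a near copy of UQCRH, cannot be told apart with certainty by short reads. UQCRH was called higher in E8-cDRGcm (0.18), as was UQCRHL (0.13).

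Among genes around the respiratory chain, those for transcription, replication and RNA handling in the mitochondrion had 9 of 37 called higher and 18 lower in E8-cDRGcm (24.8% of all tested genes were higher and 24.7% lower). In E8-cSGcm 4 were higher and 6 lower (16.1% and 15.2% of all tested genes), and in E15.5-mSGcm 3 and 8 (17.8% and 20.0%). TFAM, which packages and helps to transcribe mitochondrial DNA, had 91.0 and 84.6 CPM in control, 65.9 and 67.3 in E8-cSGcm, 57.5 and 61.4 in E8-cDRGcm and 93.9 and 92.1 in E15.5-mSGcm. Both chick groups were thus below control (-0.40 and -0.56, adjusted p = 5.38e-06 and 2.43e-09, edgeR), whereas the mouse medium gave 0.08 (adjusted p = 0.325). TFB2M, the transcription factor that opens the mitochondrial promoters, also fell in the chick media (-0.48 and -0.73), and so did TWNK, the replicative helicase (-0.19 and -0.24). POLRMT, the mitochondrial RNA polymerase, was called higher in E8-cDRGcm (0.24) and LRPPRC, which keeps mitochondrial messengers stable, lower there (-0.42). The highest called values of this list were those of POLG2 in the chick media (0.69 and 0.94) and FASTKD5 in E15.5-mSGcm (0.32), and among the lowest called were MTERF2 in E8-cDRGcm (-0.81) and MTERF3 in E15.5-mSGcm (-0.53).

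Of 15 regulators of mitochondrial biogenesis tested, 2, 5 and 3 were called higher (13.3%, 33.3% and 20%) and 2, 1 and 1 lower (13.3%, 6.67% and 6.67%). Among all tested genes 16.1%, 24.8% and 17.8% were called higher and 15.2%, 24.7% and 20.0% lower. PPARGC1A, the coactivator that drives mitochondrial biogenesis, had 134 and 138 CPM in control and 160 and 171 in E15.5-mSGcm (0.28, adjusted p = 0.000111, edgeR) and was not called in the chick media. NRF1 rose in E8-cDRGcm (0.53), ESRRA in both chick media (0.26 and 0.36) and SIRT3 in both (0.45 and 0.49). GABPA and PPARGC1B were not called in any medium, PPRC1 was called lower in E8-cDRGcm (-0.15), GABPB1 in E8-cSGcm (-0.23) and E15.5-mSGcm (-0.41) and PRKAA2 in E8-cSGcm (-0.58), and GABPB2 had the highest called value of the list in E8-cDRGcm (1.02).

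Of 54 assembly factors tested, 9, 11 and 4 were called higher in E8-cSGcm, E8-cDRGcm and E15.5-mSGcm and 5, 16 and 14 lower (16.7%, 20.4% and 7.41%, and 9.26%, 29.6% and 25.9%), against 16.1%, 24.8% and 17.8% of all tested genes higher and 15.2%, 24.7% and 20.0% lower. LYRM7, which fits the Rieske protein into complex III, had 39.1 and 34.3 CPM in control, 26.5 and 29.3 in E8-cSGcm, 11.4 and 13.6 in E8-cDRGcm and 26.9 and 26.5 in E15.5-mSGcm (-0.39, -1.55 and -0.46, all called). SDHAF4, an assembly factor of complex II, rose in both chick media (0.74 and 1.09), COA7 fell in both (-0.40 and -0.62), SDHAF2 rose in E15.5-mSGcm (0.57) and CMC1 fell there (-0.52). Of 74 mitochondrial ribosomal proteins, 8, 13 and 1 were called higher (10.8%, 17.6% and 1.35%) and 10, 27 and 23 lower (13.5%, 36.5% and 31.1%). The one called higher in E15.5-mSGcm was MRPS6, a protein of the small subunit (1.02), and MRPL4 had the lowest called value there (-0.45). The highest and lowest called values were MRPL52 (0.50) and MRPL1 (-0.44) in E8-cSGcm, and MRPS22 (0.71) and MRPS14 (-0.84) in E8-cDRGcm.

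Of 27 genes of the TCA cycle and pyruvate entry, 6, 9 and 5 were called higher (22.2%, 33.3% and 18.5%) and 3, 8 and 5 lower (11.1%, 29.6% and 18.5%), against 16.1%, 24.8% and 17.8% of all tested genes higher and 15.2%, 24.7% and 20.0% lower. IDH2, the NADP-dependent isocitrate dehydrogenase, fell in E15.5-mSGcm from 158 and 159 CPM to 89.5 and 88.9 (-0.83, adjusted p = 4.2e-14, edgeR), and PC, pyruvate carboxylase, rose there (0.68). PDK4, an inhibitor of pyruvate entry at no more than 2.05 CPM, rose in both chick media (1.17 and 1.30), PDK2 fell in E8-cDRGcm (-0.94) and IDH3G fell in both chick media (-0.31 and -0.47). Of 21 carriers and shuttles, 9, 8 and 3 were called higher (42.9%, 38.1% and 14.3%) and 2, 5 and 8 lower (9.52%, 23.8% and 38.1%). GOT1 of the malate-aspartate shuttle rose in the chick media (0.64 and 1.11). UCP2, an uncoupling protein of the inner membrane, had calls of 0.34 in E8-cSGcm, -0.69 in E8-cDRGcm and -0.91 in E15.5-mSGcm, and SLC25A13 (-0.29 in E8-cSGcm), SLC25A10 (-1.10 in E8-cDRGcm) and ETFDH (0.35 in E15.5-mSGcm) were the other highest or lowest called values.

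Of 11 partners of the chain outside the symbol families, 2, 3 and 2 were called higher (18.2%, 27.3% and 18.2%) and 0, 2 and 1 lower (0%, 18.2% and 9.09%), and the shares of all tested genes are those given above. CYCS, the cytochrome c that carries electrons from complex III to complex IV, and NDUFAB1, the acyl carrier protein in complex I, were not called in any medium. ATP5IF1, the inhibitor of the ATP synthase, rose in both chick media (0.24 and 0.22), CHCHD4 rose in E8-cDRGcm (0.33) and fell in E15.5-mSGcm (-0.28), COQ10B rose in E15.5-mSGcm (0.62) and COQ10A fell in E8-cDRGcm (-0.79). Of 9 genes of mitochondrial defence against oxidants, 3, 3 and 1 were called higher (33.3%, 33.3% and 11.1%) and 0, 2 and 2 lower (0%, 22.2% and 22.2%). All tested genes had 16.1%, 24.8% and 17.8% higher and 15.2%, 24.7% and 20.0% lower. GPX4 rose in both chick media (0.47 and 0.51), PRDX5 in all 3 media (0.37, 0.34 and 0.18), while PRDX3 fell in E8-cDRGcm (-0.70) and CAT in E15.5-mSGcm (-0.35).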

How the data were processed

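RNA of IGR-N91 aggregates (8 libraries, 4 media) was made into stranded libraries (50 ng of total RNA each) and read as 75 bp single reads. Per the submitters' processing notes and the paper's methods, the authors used bcl2fastq 2.17.1.14, cutadapt 1.9.1, TopHat2 2.1.0 and HTSeq 0.11.3 and deposited raw counts per Ensembl gene, with no normalization or pooling. The notes name hg38 and the paper's methods hg19, so the build was not settled, and no nuclear gene position is printed other than RefSeq promoters on GRCh38.p14. The strand option and the annotation release are not given in the sources used here. Libraries were grouped by their labels.

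Symbols, exon length and GC content came from GENCODE 44 on GRCh37, which matched 58611 of 60676 genes. Counts were normalised by TMM, filtered by filterByExpr to 16680 genes and fitted with edgeR 4.0.16 (robust quasi-likelihood, 1 model of 8 libraries, R 4.3.3), with Benjamini-Hochberg adjustment. CPM are scaled by TMM except where shares of a library, levels per kb or summed markers are given. Shares and totals were compared by an exact permutation test, chosen after the data were seen. Alternatives were RLE factors, TMM from nuclear genes, DESeq2 1.42.0, filters at 1 count in total or 10 counts in every library, the libraries compared alone, the replicate block, a GC and length correction (splines, 5 degrees of freedom), thinning to 7930765 counts, each library left out, and a 1.5-fold rule. The fit was tested on simulated data. Figures used matplotlib 3.10.9.

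The members, lists and tests were chosen with earlier results of these data known. Named genes are the 13 mitochondrial genes, core subunits, isoforms, the 3 highest and 3 lowest called nuclear members per medium, members past 1.5-fold, the largest change per complex, and the extremes of each companion list. Others named, such as those with opposite calls and NDUFB2, were chosen after their values were seen. Results for some genes are not reported here.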

Additional observations from a re-analysis of the deposited data

Results flagged for a closer look

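These members were called in opposite directions against control in a chick medium and in E15.5-mSGcm, and the direct comparison of the media, which leaves the control libraries out of the contrast, also passed in edgeR. The adjusted p of the direct comparisons was 1.02e-05 to 0.00283 for the mitochondrial genes and 1.11e-11 to 2.18e-05 for the nuclear members. The values are log2 fold changes of E15.5-mSGcm over the chick medium. Among the mitochondrial genes they were MT-ND3 1.43, MT-CYB 2.29, MT-CO3 1.48, MT-ATP6 1.61 and MT-ATP8 1.69 over E8-cSGcm, and MT-ND3 1.5, MT-CYB 2.16, MT-CO3 1.49, MT-ATP6 1.93 and MT-ATP8 2.00 over E8-cDRGcm. Among the nuclear members they were NDUFA8 -0.50, NDUFV1 -0.55, SDHB -0.43, CYC1 -0.57, UQCRC1 -0.38 and COX8A -0.56 over E8-cSGcm, and NDUFA13 -0.63, NDUFS8 -0.45, NDUFV1 -0.68, SDHB -0.44, CYC1 -0.69, UQCRC1 -0.56, COX5A -0.33, COX7B 0.59 and COX8A -0.55 over E8-cDRGcm. The nuclear differences moved with GC content, as given beside their values, and were all still called after the GC and length correction. Many of the calls against control were not. With the correction the falls of NDUFV1, CYC1, UQCRC1, COX8A, NDUFA13 and NDUFS8 in E15.5-mSGcm and the rise of COX5A in E8-cDRGcm were no longer called. Opposite calls against control then remained for SDHB, NDUFA8 and COX7B alone. The mitochondrial genes held 3.32% and 3.02% of all counts in E15.5-mSGcm, 1.91% and 1.55% in E8-cSGcm and 1.62% and 2.06% in E8-cDRGcm. Control, at 1.81% and 2.36%, overlapped with both chick media. The part of this share in the mitochondrial differences was not tested, nor why the nuclear ones moved with GC content.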

How the results depend on the processing

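No median and no called value of the named genes changed its direction. Values called in neither fit did so in 109 of 2112 cases with a library left out. Under the other alternatives 88 of 2618 values did so, 2 of them called: NDUFB7 in E15.5-mSGcm, which is no named gene of the rule, turned from -0.32 to 0.013 with the GC and length correction, with and without the replicate block. With DESeq2 the nuclear members called higher were 6 in E8-cSGcm, 13 in E8-cDRGcm and 3 in E15.5-mSGcm and those called lower in E15.5-mSGcm 13, and 11 mitochondrial members differed among the media. Shares of all tested genes called under DESeq2 and the other refitted alternatives are not given here, so their counts cannot be set against a background. With the 1.5-fold rule 0 nuclear members were higher and 0 lower in E8-cSGcm and in E15.5-mSGcm, and 1 and 1 in E8-cDRGcm, by construction. With only the libraries compared, which leaves fewer libraries to estimate the spread, the mitochondrial calls were 3 lower in each chick medium and 1 higher in E15.5-mSGcm. With a filter at 1 count in total, E15.5-mSGcm had 3 nuclear and 2 mitochondrial members higher and a nuclear median of -0.10. With the GC and length correction 3 nuclear members were higher in E15.5-mSGcm. Other than the 1.5-fold rule and the smaller fits, the cause of these changes was not tested.

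Replicate numbers did not pair the libraries: deviations from the group means correlated at -0.0437 to 0.042 across genes between groups. With the replicate block 2 mitochondrial members were higher in E15.5-mSGcm, and with the GC correction and replicate block together 11 nuclear members were higher in E8-cSGcm and 3 in E15.5-mSGcm.

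With each library left out in turn, nuclear members higher in E8-cSGcm ranged from 6 to 21, in E8-cDRGcm from 14 to 23 and in E15.5-mSGcm from 1 to 7, and those lower from 3 to 5, 11 to 15 and 14 to 24. Mitochondrial members lower in E8-cSGcm ranged from 1 to 6 and in E8-cDRGcm from 3 to 6, and those higher in E15.5-mSGcm from 0 to 7. The medians in E8-cSGcm, E8-cDRGcm and E15.5-mSGcm ranged from -0.95 to -0.56, -0.73 to -0.29 and 0.52 to 0.85 for the mitochondrial members, and from 0.05 to 0.12, 0.014 to 0.11 and -0.12 to -0.046 for the nuclear members. Those differing among the media were 46 to 51 nuclear and 6 to 7 mitochondrial. Over 141 values of named genes and 2529 alternatives, 228 lost a call, 28 gained one and no called value reversed. Of 216 alternatives for the 12 counts in the direct comparisons of media, 21 moved the count by over 1.5 times. With 2 libraries per group, and the smallest totals in E15.5-mSGcm, small changes of low genes were not detectable.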
